A study of Mus musculus with 703 samples.

Results

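The mitochondrial carrier family Slc25 was followed in bulk RNA-seq libraries of the calf muscle gastrocnemius from mice of 20 CC-RIX strains, 469 of them untreated and 234 given metformin. Members were all genes of the deposited table with the symbol Slc25a and a number, except Slc25a20, which left 43 members among 19088 genes. A carrier of this family is a small protein of repeated membrane-spanning segments, and nearly all members sit in the inner mitochondrial membrane. They pass nucleotides, phosphate, carboxylates, amino acids, cofactors and iron between the cytosol and the matrix, and so link the respiratory chain and the citric acid cycle to the rest of the cell. In skeletal muscle the family is best known for the exchange of ADP for ATP, which brings energy to the contracting fibre. Sorted by substrate as known in general, 3 members carry ADP/ATP or phosphate, 4 carry di- and tricarboxylates, 9 amino acids, 9 nucleotides and cofactors, and 4 iron or glutathione. A further 3 are calcium-regulated carriers of ATP-Mg and phosphate, 3 resemble uncoupling proteins, and for 8 the substrate was taken as not settled.

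The CC-RIX strains are F1 crosses among 19 Collaborative Cross lines. Each such line is an inbred mosaic of the same founder genomes, so animals of 1 strain are genetically alike. The 8 groups were females and males on 10% fat or on 44% fat, without drug or with metformin at 5 mg/mL in the drinking water. The labels list fiber with both diets, and their protocol names the diets chow and high fat high sugar. Untreated were 236 females and 233 males, of which 234 were on 10% fat and 235 on 44% fat. Metformin was given to 57 females and 59 males on 10% fat and to 59 females and 59 males on 44% fat. By the treatment protocol in the labels, metformin animals all belonged to the older cohort of the study while untreated animals could belong to either, and since the labels give no age, metformin and age cannot be told apart.

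Total counts per library ran from 27.4 to 96.1 mega-counts (M), with a mean of 49.4 ± 7.66 M (SD). Expression went against the sex label in 15 libraries and lay nearer to another strain in 4. In 37 libraries the summed level of 7 hepatocyte markers was over 5 times its median. The summed level of 6 muscle fibre markers had a median of 142500 CPM (counts per M counts of the library) and was never below 83590 CPM. Sequencing identifiers in the labels fell into a lower range of 544 libraries and an upper range of 159, and the range was a term in each fit. Levels of members are in CPM after normalisation of library sizes, and per kb of exon where different genes are compared. Exon length is that of all annotated exons of a gene merged, which can exceed that of the transcript expressed. Summed marker levels are in CPM of the total count, without that normalisation. In bulk muscle, fewer cells of a type and less RNA per cell cannot be told apart.

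Slc25a4, which encodes the ADP/ATP carrier of heart and muscle, was by far the most abundant member, with a median of 773 CPM per kb over all libraries. It made up 70.4% of the summed level per kb of the family. Next came the phosphate carrier Slc25a3 with a median of 85.6 CPM per kb, the oxoglutarate/malate carrier Slc25a11 with 72.8 CPM per kb and the aspartate/glutamate carrier Slc25a12 with 54.5 CPM per kb. Carriers of ADP/ATP and phosphate together held 79.4% of the summed level, those of di- and tricarboxylates 7.11%, those of amino acids 6.37% and those of nucleotides and cofactors 3.36%. Iron and glutathione carriers held 1.49%, members with no settled substrate 1.14%, calcium-regulated carriers 0.889% and the uncoupling-protein-like members 0.262%.

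**Figure D1:**
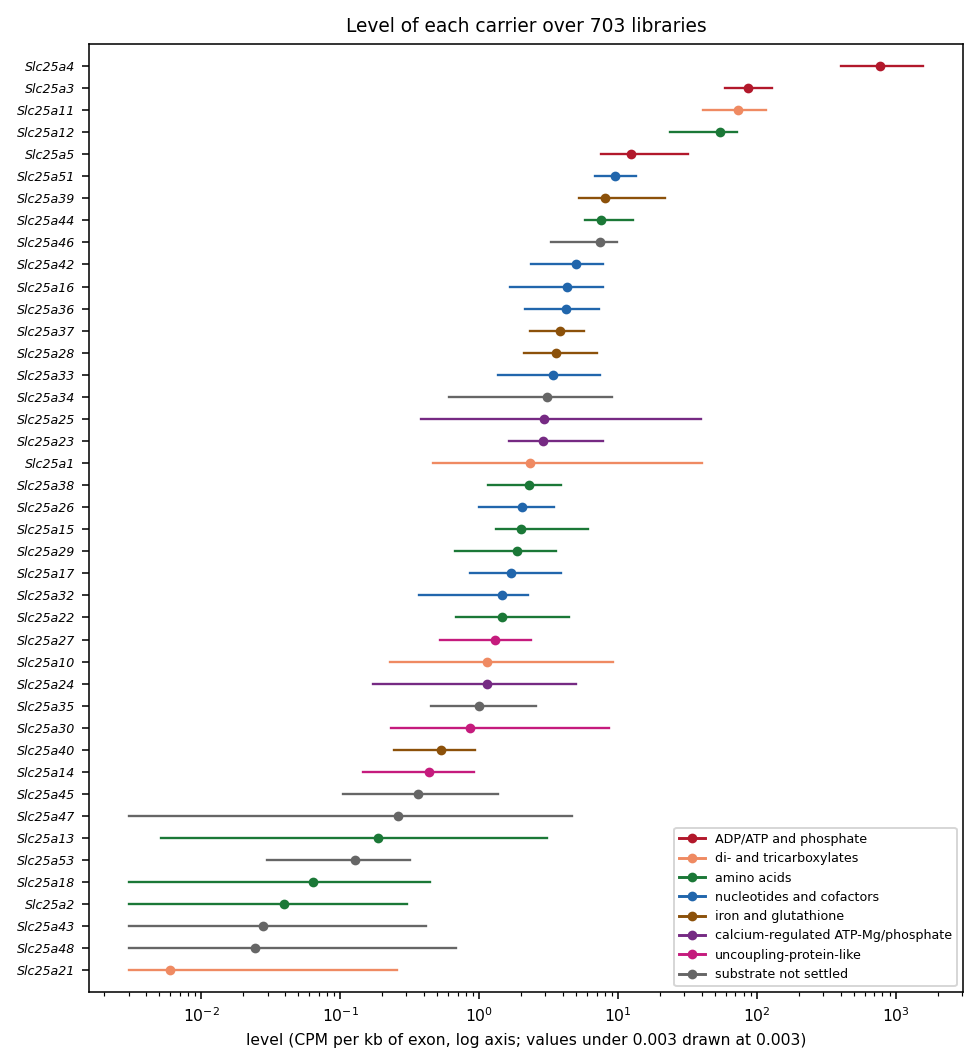
Level of 42 of the 43 carriers in CPM per kb of exon on a log axis. The point is the median over all libraries, the line runs from the lowest to the highest library and colours give the substrate group. Slc25a4 stands alone at a median of 773 CPM per kb, and Slc25a21 lies lowest at 0.00593 CPM per kb.

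Some pairs of members with the same substrate differed widely in level, and others were near equal at the median. Slc25a4 exceeded Slc25a5, the ADP/ATP carrier of proliferating cells, in every library, with a median ratio per kb of 61.9 and a range from 21.9 to 108.6. Both genes are near-copies with many pseudogenes, so reads may be divided between them with error. Slc25a12 exceeded its paralogue Slc25a13, the aspartate/glutamate carrier of liver, in every library, with a median ratio of 290. The mitoferrins Slc25a37 and Slc25a28, which import iron, were near equal in level per kb, though their medians were 23.1 and 13.4 CPM. Their ratio per kb had a median of 1.06 and ranged from 0.517 to 2.35. Slc25a25, a calcium-regulated ATP-Mg/phosphate carrier, and its relative Slc25a23 had a median ratio of 1.02 that ranged from 0.133 to 15.3.

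Some members were close to the detection limit. The oxodicarboxylate carrier Slc25a21 had no count in 321 libraries, Slc25a43 in 216, the ornithine carrier Slc25a2 in 200 and Slc25a48 in 190. In untreated libraries 40 of 43 members passed the filter on low counts, and Slc25a2, Slc25a21 and Slc25a43 did not. In all libraries 42 members passed, and Slc25a21 did not. At the mean depth a level of 0.1 CPM stands for only a few reads.

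Carriers differed between strains about as often as other genes, and a few differed widely. The share of variance between strains in log2 CPM (omega squared, 469 untreated libraries) had a median of 18.1% over the 40 members tested, beside 15.4% over all 16384 genes tested. It ran from 2.10% to 90.5%. Of the members, 38 of 40 (95%) differed between strains at an adjusted p under 0.05 by edgeR's quasi-likelihood test, beside 95.4% of all genes tested. Slc25a45 (adjusted p = 0.053) and Slc25a53 (adjusted p = 0.098), both of no settled substrate, did not pass.

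Slc25a16, a carrier linked to coenzyme A, had the largest share between strains at 90.5%. The gene lies on chromosome 10 from position 62920633 to 62946498 on the plus strand (GRCm38). Mean levels were 10.3 ± 1.45 CPM (SD, n = 25) in (CC043/GeniUncJ x CC042/GeniUncJ)F1, 10.8 ± 1.14 CPM (SD, n = 22) in (CC042/GeniUncJ x CC060/UncJ)F1, 11.3 ± 1.18 CPM (SD, n = 24) in (CC075/UncJ x CC042/GeniUncJ)F1 and 11.4 ± 1.85 CPM (SD, n = 24) in (CC042/GeniUncJ x CC040/TauUncJ)F1. The next strain, (CC002/UncJ x CC043/GeniUncJ)F1, had 17.5 ± 1.66 CPM (SD, n = 24), which is 1.54 times the highest of these. The highest mean was 28.6 ± 2.01 CPM (SD, n = 24) in (CC051/TauUncJ x CC059/TauUncJ)F1.

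All 4 of the low strains had CC042/GeniUncJ as a parent, but the line has 6 strains in the study. Its other strains, (CC019/TauUncJ x CC042/GeniUncJ)F1 and (CC001/UncJ x CC042/GeniUncJ)F1, had means of 19.6 and 20.4 CPM, in the middle of the order. Single libraries of the 4 low strains lay between 8.07 and 14.1 CPM, and those of the other 16 strains between 13.4 and 34.4 CPM, so the ranges overlapped only between 13.4 and 14.1 CPM. The same strains were lowest among the metformin libraries, with means from 11 to 12.1 CPM against 18.2 to 29.3 CPM in the other 16. Above the gap, neighbouring strains in the order differed by less than their SDs, except for (CC019/TauUncJ x CC075/UncJ)F1 with 20.8 ± 2.40 CPM (SD, n = 24) and (CC024/GeniUncJ x CC002/UncJ)F1 with 24.2 ± 2.15 CPM (SD, n = 24).

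**Figure D2:**
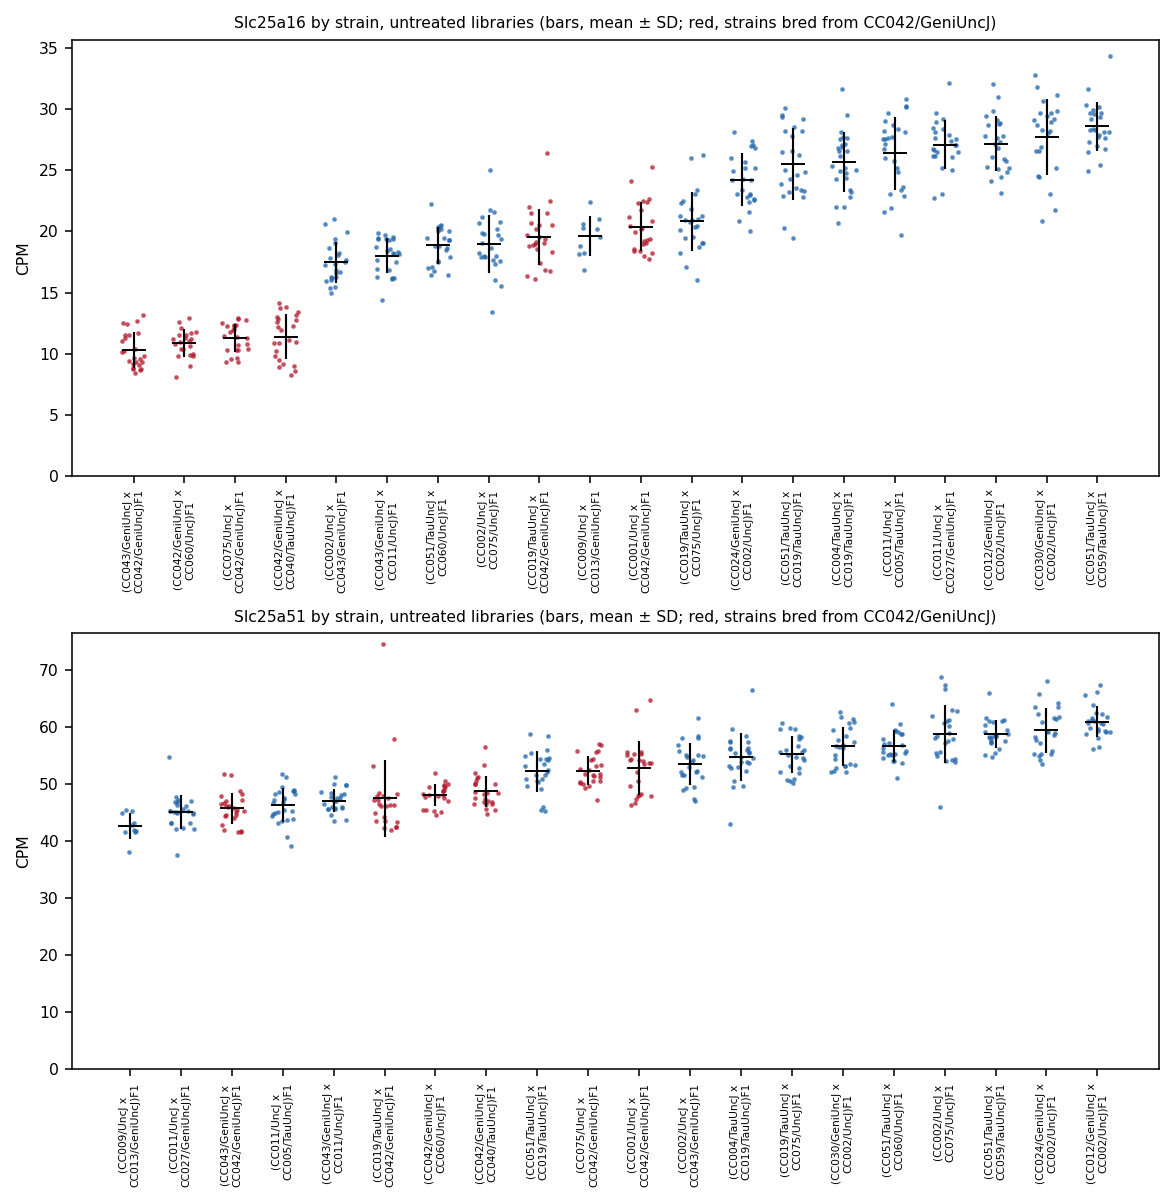
Slc25a16 (top) and Slc25a51 (bottom) in CPM by strain, for 469 untreated libraries. Points are libraries, black marks the mean ± SD, strains are in order of their mean, and red marks strains bred from CC042/GeniUncJ. For Slc25a16, 4 red strains sit between 10.3 and 11.4 CPM and the next strain at 17.5 CPM, whereas Slc25a51 rises in small steps from 42.7 to 61 CPM.

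The mitochondrial NAD+ carrier Slc25a51 followed with 68% between strains. Its strain means ran from 42.7 ± 2.21 CPM (SD, n = 10) in (CC009/UncJ x CC013/GeniUncJ)F1 to 61 ± 2.76 CPM (SD, n = 24) in (CC012/GeniUncJ x CC002/UncJ)F1. The libraries of these strains did not overlap, with 38.2 to 45.5 CPM in the first and 56.3 to 67.5 CPM in the second. The first of them was sequenced in the upper identifier range alone. Slc25a26, the carrier of S-adenosylmethionine, had 51% between strains and strain means from 7.36 to 12.0 CPM. The members with the highest shares were thus all in the nucleotide and cofactor group, and 3 of 40 members exceeded 50%, beside 9.25% of all genes tested.

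The mitoferrin Slc25a37 (47.7%), Slc25a47 (42.5%), Slc25a23 (42.1%), the basic amino acid carrier Slc25a29 (41.7%) and the glutathione carrier Slc25a40 (41.4%) completed the 8 largest shares. Their highest and lowest strain means differed 1.53-fold, 4.2-fold, 1.63-fold, 2.17-fold and 1.65-fold. Strain shares were smallest for Slc25a14 (2.10%), Slc25a45 (2.39%), Slc25a53 (2.70%) and the glutamate carrier Slc25a18 (5.62%). These members were expressed at a median near or below 1 CPM, as was Slc25a47 (0.775 CPM), which had a large share. For a gene of few reads, counting error takes a larger part of the variance, but its part in these shares was not tested. The most abundant member, Slc25a4, had 7.24% between strains and strain means from 1733 to 2075 CPM.

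For 3 members, the mean levels of all strains sharing 1 parental line lay above or below the means of all other strains. Slc25a23 had strain means of 17.7 to 19.5 CPM in the 3 strains bred from CC075/UncJ and of 12.0 to 17.4 CPM in the other 17. Slc25a21 was likewise above the rest in these strains, at 0.107 to 0.148 CPM against 0.0172 to 0.0934 CPM. Slc25a40 was at 3.37 to 3.85 CPM in the 3 strains bred from CC043/GeniUncJ and at 3.98 to 5.57 CPM in the other 17. These separations are of means alone, and the spread within strains was wide beside them. In (CC075/UncJ x CC042/GeniUncJ)F1, the highest strain for both, Slc25a23 had 19.5 ± 2.96 CPM and Slc25a21 0.148 ± 0.122 CPM (SD, n = 24). In the lowest strain for Slc25a40, (CC043/GeniUncJ x CC011/UncJ)F1, it had 3.37 ± 0.528 CPM (SD, n = 24). The separations were found by looking at each line with at least 2 strains for every member and are given without a test. How often other genes separate in this way was not counted.

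**Figure D3:**
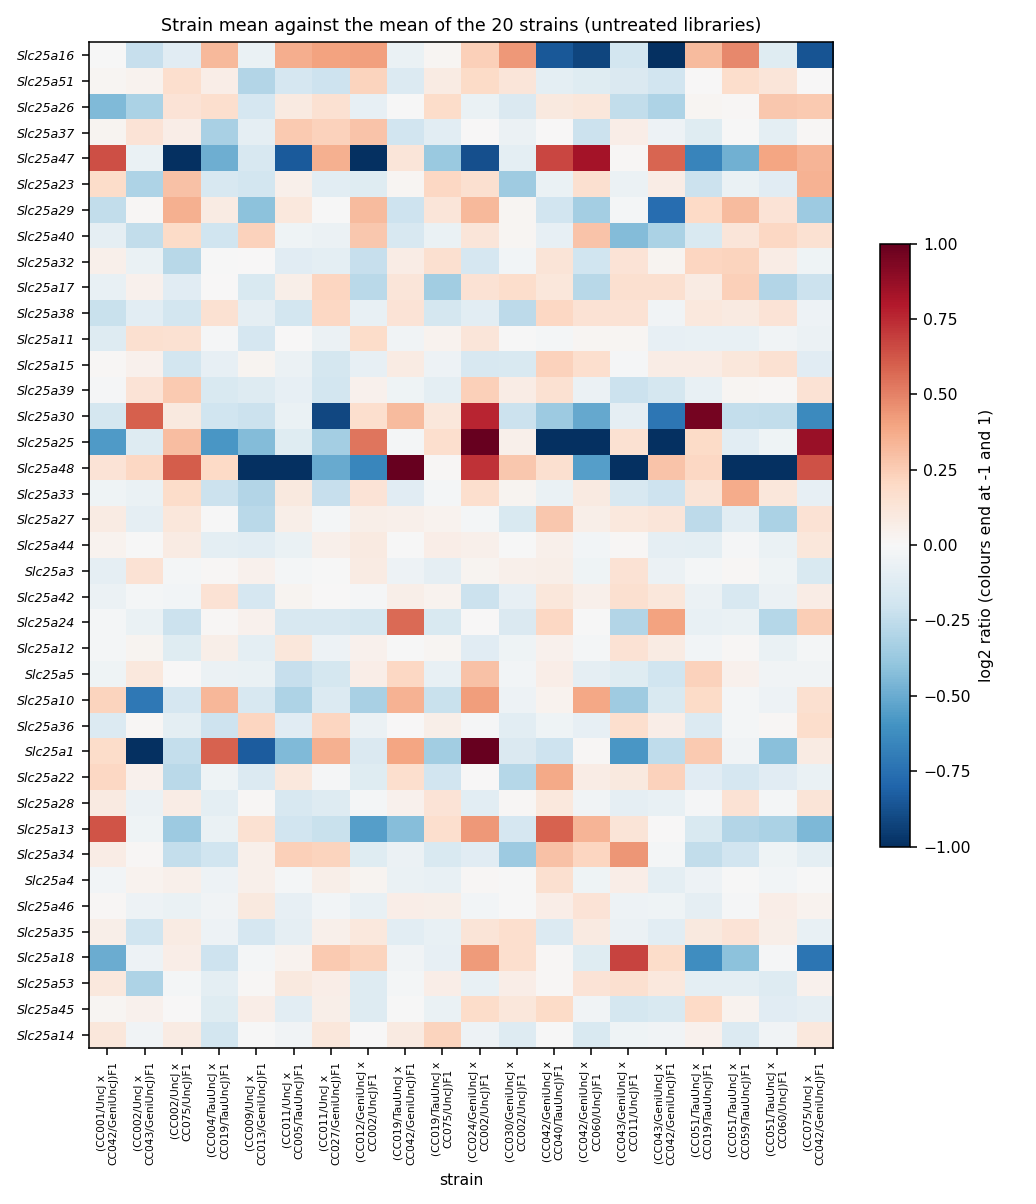
Strain means of 39 of the 40 tested carriers in untreated libraries, as the log2 ratio to the mean over the 20 strains. Rows run from the largest share of variance between strains (Slc25a16, 90.5%) to the smallest (Slc25a14, 2.10%), and Slc25a16 shows 4 strains well below the others.

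Slc25a25 had the widest strain means in absolute terms among members of middle level. In (CC043/GeniUncJ x CC042/GeniUncJ)F1 animals it was lowest, at 10.7 ± 8.21 CPM (SD, n = 25). The highest was 118.6 ± 90.6 CPM (SD, n = 24), in (CC024/GeniUncJ x CC002/UncJ)F1, whose libraries ran from 9.11 to 294.7 CPM and overlapped those of the lowest strain. The share of variance between strains was 19.8%.

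Slc25a34, an orphan carrier whose substrate is not settled, had the largest share of variance with diet among the 40 members tested. Its log2 fold change was smaller in size than that of Slc25a1, given below. Slc25a34 lies on chromosome 4 from position 141618824 to 141623821 on the minus strand (GRCm38). The 300 bases around its start, 250 before and 50 after it (RefSeq, GRCm38.p6, chr4:141623785-141624084, minus strand), are shown because it was the only one of 33 members with a promoter window to hold the nuclear receptor motif AAGGTCA. Capitals mark the match, which reads TGACCTT on the strand printed and lies before the start.

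Slc25a34 promoter: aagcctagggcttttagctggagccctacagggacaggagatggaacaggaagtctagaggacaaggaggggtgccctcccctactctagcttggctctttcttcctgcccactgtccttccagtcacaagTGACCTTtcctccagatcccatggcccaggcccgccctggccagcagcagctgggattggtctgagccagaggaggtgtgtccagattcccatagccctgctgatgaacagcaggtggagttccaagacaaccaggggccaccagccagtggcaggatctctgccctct

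The motif, searched on both strands, was held by 5.38% of 27025 genes with such windows. The NRF1 core GCGCATGCG (1.95% of genes) and the ETS core CCGGAAGT (4.31% of genes), also searched on both strands, were each found in 0 of the 33 members. The rest of the 43 members, Slc25a2 and Slc25a46 among them, were not searched. The member counts for all 3 motifs therefore hold for the searched members alone. A match or its absence in these windows says nothing on its own about binding by a factor.

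In untreated animals Slc25a34 ranged from 1.72 to 24.4 CPM with a median of 6.35 CPM on 10% fat (n = 234), and from 2.39 to 22.4 CPM with a median of 10.5 CPM on 44% fat (n = 235). The groups overlapped widely, but within strains the difference had the same sign in 20 of 20. The log2 fold change for 44% against 10% fat was 0.62 ± 0.048 (SE), with an adjusted p of 2.2e-30 by edgeR. Diet took 26% of its variance. Strain differences, on the log2 CPM scale, ran from 0.13 in (CC024/GeniUncJ x CC002/UncJ)F1 to 1.16 in (CC011/UncJ x CC027/GeniUncJ)F1. Metformin animals, which are other mice, had medians of 5.35 CPM on 10% fat and 9.95 CPM on 44% fat. Their log2 fold change was 0.83 ± 0.062 (SE), with an adjusted p of 1.6e-27, and 20 of 20 strains were higher on 44% fat.

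Diet changed 13 of 40 members (32.5%) in untreated animals, beside 20.3% of all genes tested. Of these, 8 rose on 44% fat and 5 fell, beside 10.1% of all genes in each direction. The median log2 fold change was -0.0026 over the 40 members and -0.0030 over all genes. Most of the changes were small. Only Slc25a34, Slc25a1 and Slc25a48 moved by more than 0.5 on the log2 scale.

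The di- and tricarboxylate carriers parted. Slc25a1, which exports citrate for the synthesis of fatty acids, had a median of 6.62 CPM on 10% fat (n = 234, range 1.38 to 86.9) and 3.98 CPM on 44% fat (n = 235, range 1.42 to 68.3) in untreated animals. It fell on 44% fat by 0.79 ± 0.087 (SE) on the log2 scale, with an adjusted p of 6.1e-16, and was lower in 18 of 20 strains. Slc25a10, the dicarboxylate carrier, fell by 0.26 ± 0.058 (SE) with an adjusted p of 0.00023. Slc25a11 rose by 0.045 ± 0.013 (SE) with an adjusted p of 0.0048. In metformin animals Slc25a1 fell by 1.21 ± 0.11 (SE) and Slc25a10 by 0.53 ± 0.069 (SE), with adjusted p of 3e-19 and 1.3e-10.

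Slc25a1 and Slc25a10 moved together, and with markers of other cell types. Across 469 untreated libraries, after centring within strain, sex and diet, Pearson's r between Slc25a1 and Slc25a10 was 0.82. The r with the summed adipocyte markers was 0.66 for Slc25a1 and 0.62 for Slc25a10. With the hepatocyte markers r was 0.36 and 0.38, and with the macrophage markers 0.27 and 0.29. In the 37 libraries high in hepatocyte markers Slc25a1 had a median of 7.80 CPM, against 5.00 CPM in the others, and Slc25a10 5.37 against 3.87 CPM. These values are descriptions, and in them member levels were normalised for library size whereas marker sums were divided by the total count alone. The 6 adipocyte markers all differed with diet, 4 higher and 2 lower on 44% fat. Their summed level in untreated females had a median of 114.1 CPM on 10% fat (range 26.4 to 509.3) and 105.4 CPM on 44% fat (range 10.1 to 537.3). In untreated males it was 66 CPM (range 8.25 to 393.7) and 68 CPM (range 6.56 to 435.7), and none of the markers had a median of 0. Without the libraries high in hepatocyte markers, Slc25a1 had a diet estimate of -0.77 ± 0.089 (SE) and Slc25a10 of -0.23 ± 0.059 (SE), both still called. The part of adipocytes and macrophages in the changes of Slc25a1 and Slc25a10 was not tested.

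Among amino acid carriers, 1 of 8 tested changed with diet. The glutamate carrier Slc25a22 rose on 44% fat by 0.25 ± 0.035 (SE) on the log2 scale, with an adjusted p of 6.3e-10, and was higher in 20 of 20 strains. Its medians were 8.09 CPM on 10% fat and 9.79 CPM on 44% fat. Slc25a12 differed by 0.0030 ± 0.011 (SE) with an adjusted p of 0.89, and Slc25a13 by 0.16 ± 0.078 (SE) with an adjusted p of 0.15. Slc25a13 was higher on 44% fat in 18 of 20 strains, and it passed with limma voom (0.23, adjusted p = 0.0044), without libraries against their label (0.31, adjusted p = 7.2e-05) and without those high in hepatocyte markers (0.20, adjusted p = 0.0012).

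Of 9 nucleotide and cofactor carriers, only the coenzyme A carrier Slc25a42 changed with diet. It rose by 0.11 ± 0.017 (SE) with an adjusted p of 8.5e-08, higher in 19 of 20 strains, from a median of 29.2 CPM on 10% fat to 31.6 CPM on 44% fat. In metformin animals it rose by 0.19 ± 0.022 (SE). Slc25a34, Slc25a22 and Slc25a42 also varied together within strain, sex and diet in untreated libraries. Pearson's r was 0.63 for Slc25a22 with Slc25a34, 0.61 for Slc25a34 with Slc25a42 and 0.54 for Slc25a22 with Slc25a42, against a median of 0.034 over 630 pairs of 36 members.

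Of the 3 ADP/ATP and phosphate carriers, 2 rose slightly on 44% fat. Slc25a4 rose by 0.070 ± 0.014 (SE) with an adjusted p of 1.5e-05 and Slc25a3 by 0.056 ± 0.011 (SE) with an adjusted p of 7.4e-06, each in 18 of 20 strains. Slc25a5 differed by -0.0039 ± 0.027 (SE) with an adjusted p of 0.94. The mitoferrins changed in opposite directions, with Slc25a28 higher by 0.079 ± 0.019 (SE) and Slc25a37 lower by 0.055 ± 0.014 (SE). Slc25a46, an outer membrane protein that takes part in mitochondrial fission and fusion, rose by 0.045 ± 0.012 (SE). Slc25a14, an uncoupling-protein-like member, fell by 0.11 ± 0.035 (SE), a call lost in the lower and in the upper identifier range alone. The calcium-regulated carriers Slc25a23 (0.026 ± 0.019, SE, adjusted p = 0.37), Slc25a24 (-0.060 ± 0.034, SE, adjusted p = 0.22) and Slc25a25 (-0.028 ± 0.12, SE, adjusted p = 0.91) did not pass.

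Slc25a48 fell on 44% fat by 0.53 ± 0.12 (SE) with an adjusted p of 0.00012, from a median of 0.0972 to 0.0669 CPM, and it has few reads. In metformin animals its estimate was -1.30 ± 0.16 (SE) with an adjusted p of 2.1e-12.

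In metformin animals, 9 of 40 members (22.5%) changed with diet, beside 12.1% of all genes tested. Of these, 4 rose and 5 fell, beside 5.27% and 6.79% of all genes. The 234 treated libraries share no animal with the 469 untreated ones. Of the 13 members called in untreated animals, 12 (all but Slc25a14) had the same sign in treated animals and 7 were called there too: Slc25a1, Slc25a3, Slc25a10, Slc25a22, Slc25a34, Slc25a42 and Slc25a48. Slc25a51 (-0.057 ± 0.012, SE) and Slc25a35 (-0.16 ± 0.042, SE) fell in treated animals alone among the calls, but whether this differs from untreated animals is given only by the interaction test, which called no member.

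Within the lower identifier range, 12 of 40 members changed with diet in untreated animals (17.2% of all genes), and within the upper range, with 69 untreated libraries, 2 of 40 did (2.20% of all genes), Slc25a34 and Slc25a42. In both ranges Slc25a1 had a negative estimate, -0.83 ± 0.095 (SE) in the lower and -0.63 ± 0.21 (SE, adjusted p = 0.10) in the upper.

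**Figure D4:**
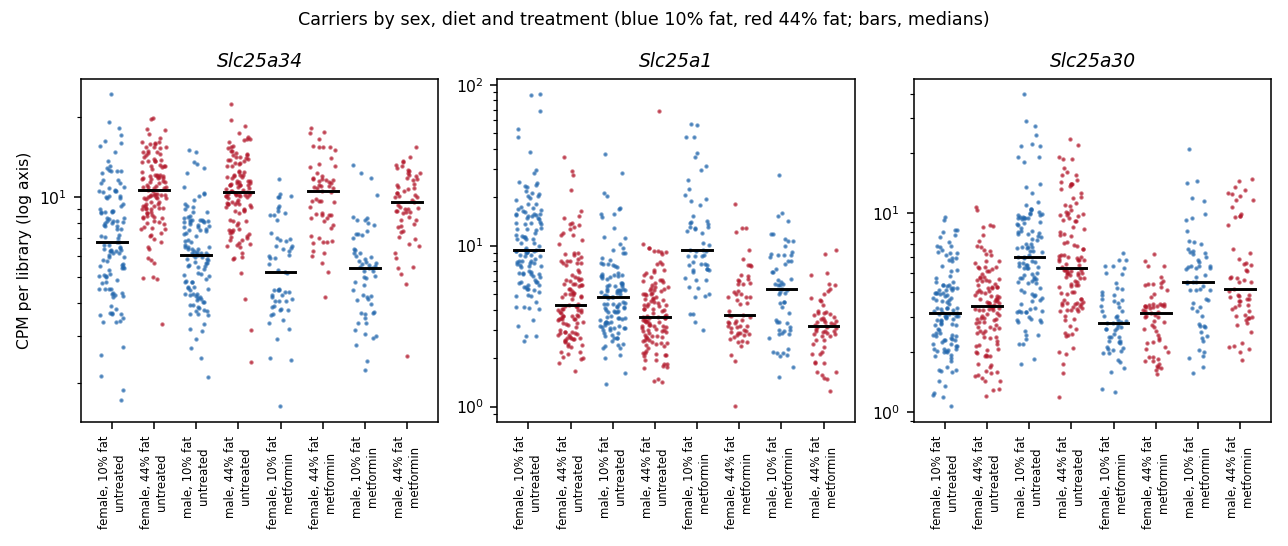
Slc25a34, Slc25a1 and Slc25a30 in CPM on log axes for all libraries in 8 groups. Blue points are libraries on 10% fat, red points on 44% fat, and bars are medians. Slc25a34 has medians of 5.22 to 6.80 CPM on 10% fat and 9.57 to 10.7 CPM on 44% fat, Slc25a1 is highest in females on 10% fat, and Slc25a30 is higher in males.

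Sex changed 25 of 40 members (62.5%) in untreated animals, beside 67.1% of all genes tested. In males 13 were higher and 12 lower, beside 30.1% and 37% of all genes. The share of members was close to the background. The largest difference upward was in Slc25a30, an uncoupling-protein-like member first described in kidney, with medians of 3.30 CPM in females (n = 236, range 1.07 to 10.7) and 5.71 CPM in males (n = 233, range 1.19 to 39.6). It was higher in males by 0.96 ± 0.064 (SE) on the log2 scale, with an adjusted p of 2.2e-40, and sex took 22.3% of its variance.

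The ADP/ATP and phosphate carriers were all higher in males, Slc25a3 by 0.17 ± 0.011 (SE), Slc25a4 by 0.17 ± 0.014 (SE) and Slc25a5 by 0.070 ± 0.027 (SE). The call for Slc25a5 was lost among genes of at least 5 CPM and in the upper identifier range, and its lowest estimate over the alternatives was 0.026. The mitoferrin Slc25a28 (0.24 ± 0.019, SE), the pyrimidine nucleotide carrier Slc25a33 (0.23 ± 0.026, SE), Slc25a26 (0.11 ± 0.017, SE) and Slc25a16 (0.079 ± 0.013, SE) were also higher in males. Of 9 nucleotide and cofactor carriers, 5 were higher and 1 lower.

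Lower in males were Slc25a48 by 1.46 ± 0.12 (SE), Slc25a1 by 0.75 ± 0.087 (SE), Slc25a10 by 0.43 ± 0.058 (SE) and the calcium-regulated Slc25a24 by 0.20 ± 0.034 (SE). The same direction held for Slc25a12 (-0.17 ± 0.011, SE), Slc25a23 (-0.16 ± 0.019, SE), Slc25a34 (-0.15 ± 0.048, SE) and Slc25a29 (-0.12 ± 0.028, SE). Each of these adjusted p was at most 0.0035. Slc25a12 had medians of 421.7 CPM in females and 376.9 CPM in males, and sex took 28% of its variance, as much as the 28.3% of Slc25a3, which went the other way. Slc25a11 (0.014 ± 0.013, SE), Slc25a13 (0.11 ± 0.077, SE), Slc25a37 (0.0095 ± 0.014, SE), Slc25a42 (0.028 ± 0.017, SE), Slc25a47 (-0.090 ± 0.073, SE) and Slc25a25 (-0.22 ± 0.12, SE) did not pass. Slc25a47 did pass without libraries against their label (-0.24, adjusted p = 0.00016) and without those high in hepatocyte markers (-0.17, adjusted p = 0.00058). Slc25a25 passed with limma voom (-0.26, adjusted p = 0.034), where Slc25a34 no longer did (-0.099, adjusted p = 0.056).

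Markers of fibre type and fat also differed between the sexes. All 6 slow fibre markers were lower in males, with a median log2 fold change of -0.68, and 5 of 6 adipocyte markers were lower in males, with a median of -0.46. The summed slow fibre level in untreated animals on 10% fat had a median of 2091 CPM in females (range 1164 to 3537) and 1212 CPM in males (range 534.8 to 2112). On 44% fat it was 2027 CPM in females (range 1202 to 4192) and 1245 CPM in males (range 432.5 to 2478). The part of fibre type and fat in the sex differences of the carriers was not tested. Within the upper identifier range 11 of 40 members were called for sex, beside 26.1% of all genes, and within the lower range 24, beside 65.8%.

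Metformin libraries differed from untreated ones in 19 of 42 members (45.2%), beside 19.4% of all 17740 genes tested. Of these, 3 rose and 16 fell, beside 8.34% and 11% of all genes in those directions. The median log2 fold change was -0.050 over the members and -0.0022 over all genes, and 31 of 42 members had a negative estimate. The changes were small, and only Slc25a25, Slc25a30 and Slc25a47 fell by more than 0.2 on the log2 scale.

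The 3 ADP/ATP and phosphate carriers fell together, Slc25a5 by 0.12 ± 0.024 (SE), Slc25a4 by 0.053 ± 0.013 (SE) and Slc25a3 by 0.047 ± 0.010 (SE). Slc25a11 fell by 0.055 ± 0.013 (SE), lower in 18 of 20 strains. Among amino acid carriers 3 of 9 fell. They were Slc25a29 by 0.15 ± 0.026 (SE), the glycine carrier Slc25a38 by 0.096 ± 0.019 (SE) and the ornithine carrier Slc25a15 by 0.048 ± 0.017 (SE). Slc25a1 (-0.088 ± 0.077, SE), Slc25a12 (0.013 ± 0.011, SE), Slc25a13 (-0.055 ± 0.069, SE) and Slc25a37 (0.029 ± 0.013, SE, adjusted p = 0.10) did not pass.

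Nucleotide and cofactor carriers went both ways. The pyrimidine nucleotide carrier Slc25a33 fell by 0.16 ± 0.025 (SE) with an adjusted p of 5.1e-08 and was lower in 19 of 20 strains. Slc25a36, which carries the same kind of nucleotide, rose by 0.061 ± 0.022 (SE) with an adjusted p of 0.033. That call was lost without libraries against their label (adjusted p = 0.062), without those high in hepatocyte markers (adjusted p = 0.078) and in the upper identifier range, where the estimate was -0.033. Slc25a42 fell by 0.057 ± 0.016 (SE) and Slc25a26 by 0.054 ± 0.016 (SE), whereas Slc25a16 rose by 0.032 ± 0.012 (SE, adjusted p = 0.040). The call for Slc25a16 was lost with no filter on low counts (adjusted p = 0.052), with limma voom and in the upper identifier range.

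Slc25a25 fell by 0.45 ± 0.11 (SE) with an adjusted p of 0.0011. Its group medians were 27.7, 32.7, 22.3 and 23.3 CPM in untreated females on 10% and 44% fat and untreated males on 10% and 44% fat. With metformin they were 22.2, 25.7, 16.7 and 17.8 CPM in the same order. Single libraries ran from 2.99 to 311.6 CPM, so the groups overlapped almost wholly. Its relative Slc25a23 rose by 0.045 ± 0.016 (SE), a call lost without the identifier range term and in the upper range alone. Slc25a30 fell by 0.31 ± 0.056 (SE) with an adjusted p of 4.5e-06, lower in 18 of 20 strains, and Slc25a34 fell by 0.16 ± 0.043 (SE) with an adjusted p of 0.0031. Slc25a47, first known as a liver carrier, fell by 0.22 ± 0.066 (SE) with an adjusted p of 0.0087. Without libraries high in hepatocyte markers its estimate was -0.10 with an adjusted p of 0.096, and it was no longer called. The remaining calls, Slc25a39 and Slc25a46, had estimates of -0.051 ± 0.019 (SE) and -0.036 ± 0.011 (SE).

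Of 6 adipocyte markers, 2 fell with metformin, and of 6 slow fibre markers edgeR called 0, with 0 at an unadjusted p under 0.05. The number of members called for metformin differed between the identifier ranges, which hold different numbers of libraries and different mixes of strains. In the lower range (400 untreated and 144 treated libraries) 21 of 42 members were called, beside 21.8% of all genes. In the upper range (69 untreated and 90 treated) 0 of 43 members and 1 of 17683 genes were called by edgeR. The estimate for Slc25a25 was -0.54 ± 0.13 (SE) in the lower range and -0.14 ± 0.19 (SE) in the upper, for Slc25a30 -0.39 ± 0.069 and -0.057 ± 0.086, for Slc25a5 -0.15 ± 0.028 and -0.018 ± 0.039, and for Slc25a33 -0.17 ± 0.029 and -0.099 ± 0.042. The difference between ranges was not tested.

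**Figure D5:**
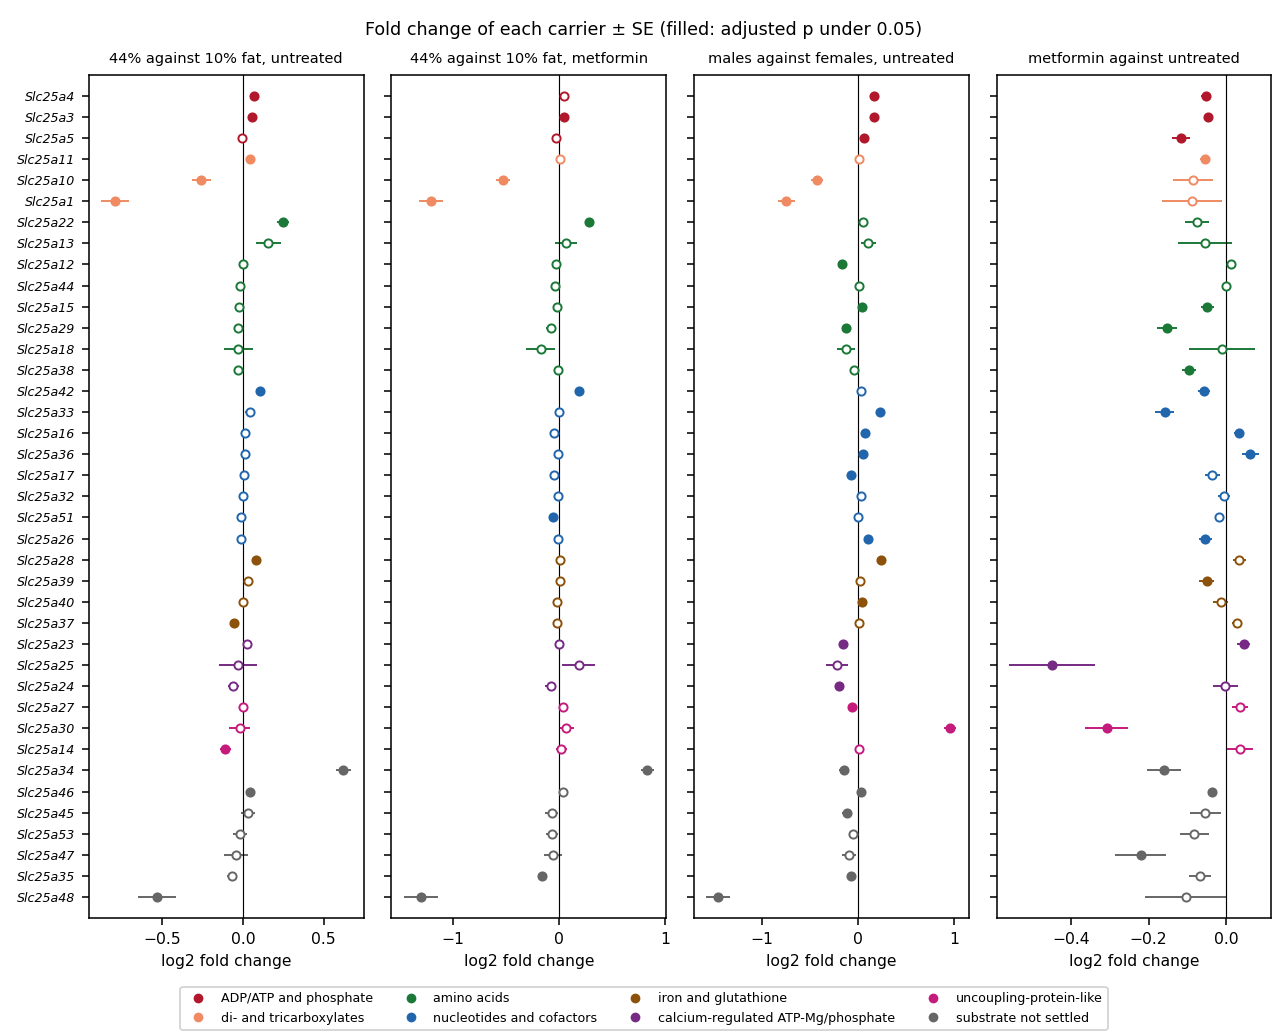
Log2 fold changes ± SE of 39 of the 40 carriers tested in untreated animals, for diet without and with metformin, sex and metformin, with scales that differ between panels. Filled points had an adjusted p under 0.05 and colours give the substrate group. Slc25a34, Slc25a1 and Slc25a48 stand out for diet, Slc25a30 and Slc25a48 for sex, and most filled points for metformin lie below 0.

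Left out in turn were the 19 libraries against their label and the 37 high in hepatocyte markers. Members called for diet were then 15 and 14 of 40, beside 21.5% and 19.4% of all genes. For sex they were 23 and 24 of 40, beside 68.5% and 66.1%, and for strain 39 and 37 of 40, beside 95.3% and 94.8%. For metformin they were 16 and 15 of 42, beside 18.4% and 16% of all genes. All 13 members called for diet were among those called in both cases.

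The diet response of 2 of 40 members (5%) differed between the sexes, beside 0.568% of all genes tested. For Slc25a1 the interaction (males minus females) was 0.76 ± 0.17 (SE) on the log2 scale with an adjusted p of 0.0060. Averaged over strains, the difference on 44% fat was -1.05 ± 0.47 (SD, n = 20 strains) in untreated females, lower in 20 of 20 strains, and -0.34 ± 0.82 (SD, n = 20 strains) in untreated males, lower in 12 of 20. For Slc25a10 the interaction was 0.51 ± 0.11 (SE), also with an adjusted p of 0.0060. Females had a difference of -0.48 ± 0.26 (SD, n = 20 strains) and males of 0.00063 ± 0.51 (SD, n = 20 strains). Untreated females on 10% fat had a median Slc25a1 level of 9.44 CPM, and the other untreated groups had 4.30 CPM (females on 44% fat), 4.76 CPM (males on 10% fat) and 3.60 CPM (males on 44% fat). In the lower range alone the adjusted p was 0.099 for Slc25a1 and 0.046 for Slc25a10.

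The diet response differed between strains for 5 of 40 members (12.5%), beside 4.13% of all genes tested: Slc25a1 (adjusted p = 5.8e-05), Slc25a47 (0.00039), Slc25a13 (0.00043), Slc25a30 (0.038) and Slc25a10 (0.049). Strain differences in Slc25a1, on the log2 CPM scale, ran from -1.71 in (CC012/GeniUncJ x CC002/UncJ)F1 to 0.22 in (CC019/TauUncJ x CC042/GeniUncJ)F1. In Slc25a30 they ran from -0.74 in (CC051/TauUncJ x CC059/TauUncJ)F1 to 0.67 in (CC051/TauUncJ x CC060/UncJ)F1, with 11 strains higher and 9 lower on 44% fat. Of 6 adipocyte markers, 5 were called in the same test, and their part in the carriers' result was not tested. Slc25a34, the member with the largest share of variance with diet, was not among those called.

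Of the members called for diet by strain, Slc25a13 and Slc25a47 had the largest ratio of medians between the 37 libraries with high hepatocyte markers and the other 666. Among all members only Slc25a21, which was not tested, had a larger one, with medians of 0.0867 and 0.0256 CPM. In the 37 libraries Slc25a13 had a median of 1.49 CPM (range 0.541 to 11.7), and in the others a median of 0.694 CPM (range 0.0194 to 2.01). Slc25a47 had 1.36 CPM (range 0.533 to 13.8) and 0.755 CPM (range 0 to 2.37). Without these libraries the adjusted p of the diet by strain interaction was 0.62 for Slc25a13 and 0.40 for Slc25a47. It was 0.00031 for Slc25a1, 0.041 for Slc25a30 and 0.073 for Slc25a10.

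The metformin difference varied between strains for 6 of 42 members (14.3%), beside 11.6% of all genes tested. They were Slc25a5 (adjusted p = 0.00033), Slc25a25 (0.00082), Slc25a33 (0.0064), Slc25a47 (0.017), Slc25a24 (0.021) and Slc25a3 (0.033). Slc25a25 had its lowest strain difference, -1.54 on the log2 CPM scale, where its untreated mean was highest, (CC024/GeniUncJ x CC002/UncJ)F1. Its highest, 0.84, was where that mean was lowest, (CC043/GeniUncJ x CC042/GeniUncJ)F1. These differences contain the same untreated libraries as the means. Slc25a5 had its lowest difference, -0.40, in (CC051/TauUncJ x CC019/TauUncJ)F1 and its highest, 0.31, again in (CC043/GeniUncJ x CC042/GeniUncJ)F1. All 6 adipocyte markers also varied between strains in the metformin difference, and their part was not tested. Without libraries high in hepatocyte markers, Slc25a5, Slc25a25 and Slc25a33 were still called.

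The metformin difference was not called to vary with diet or sex for any of the 42 members by edgeR. For diet, 0 members passed beside 0.0902% of all genes, 9 had an unadjusted p under 0.05, and limma voom called 0. For sex, 0 passed beside 3.12% of all genes, 6 had an unadjusted p under 0.05, and limma voom called 0.

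Other mitochondrial transport genes were compared from a list of 25 (outer membrane channels, the calcium uniporter, sideroflexins, the pyruvate carrier, uncoupling proteins and others). Diet changed 7 of these 25 (28%, beside 20.3% of all genes), 4 upward and 3 downward. Sex changed 24 (96%, beside 67.1% of all genes). Metformin changed 10 (40%, beside 19.4% of all genes), of which 1 rose and 9 fell, beside 8.34% and 11% of all genes. Ucp2, an uncoupling protein of many cell types, rose on 44% fat by 0.29 ± 0.045 (SE), and with metformin it fell by 0.14 ± 0.042 (SE). Ucp3 fell with metformin by 0.245 ± 0.061 (SE). On 44% fat Ucp3 was not called in untreated animals (0.11 ± 0.065, SE, adjusted p = 0.26 by edgeR) and rose in metformin animals by 0.33 ± 0.086 (SE). Ucp1 was likewise not called for diet in untreated animals (0.28 ± 0.28, SE, adjusted p = 0.53 by edgeR). In metformin animals it went the other way from Ucp3, with -2.02 ± 0.42 (SE, adjusted p = 0.00014 by edgeR). Both subunits of the pyruvate carrier fell with metformin. The 5 sideroflexins, of which Sfxn1 is known to import serine, were all lower in males, and 3 of 5 fell on 44% fat.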

How the data were processed

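Gastrocnemius RNA was sequenced by the authors as polyadenylated libraries and assigned with EMASE in the GBRS software to a transcriptome of the founder strains. The deposited expected counts per gene, which the authors gave as whole numbers, were used for every test. A second deposited table holds variance-stabilised log2 values that the authors made with DESeq2, used as an alternative scale. The build GRCm38 is named in the submitters' processing notes, and 33 of 43 members have the same start and end in GENCODE M21. A group was a sex, diet and treatment from the labels, with 1 library per animal. Strain, sex and diet cells held 2 to 8 untreated animals.

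Genes were filtered by expression over the groups and tested with edgeR 4.0.16 in R 4.3.3 (TMM, quasi-likelihood F tests). The 469 untreated libraries served for diet, sex and strain, with strain, sex, diet and identifier range in the model, and metformin in all 703 with treatment added. The paper used age as a covariate beside diet and sex. Since the labels give no age, none of these tests is adjusted for it, and untreated animals could be of either cohort. Interactions were added 1 at a time. Calls were made where the Benjamini-Hochberg adjusted p over all genes tested was below 0.05. Shares of variance used log2 CPM with a prior count of 2, and differences within strains used log2(CPM + 0.05). Alternatives included limma 3.58.1, DESeq2 1.42.0, other filters and subsets of libraries. The fits were tested on simulated data. Named for diet, sex and metformin were up to 8 called members in each direction with the largest change, and 12 members whatever their values. For strain these were the members with the 8 largest and 4 smallest shares of variance, and for interactions every called member. Outside this rule, and after their values were seen, Slc25a15, Slc25a26, Slc25a39 and Slc25a46 were named for metformin, Slc25a23 and Slc25a24 for diet, Slc25a35 and Slc25a51 for diet with metformin, and the members set apart by a parental line. The members and lists were chosen with earlier results of these data known. Of the members, 23 overlap another gene by position, and since the sources used here do not say whether counting used strand, their reads may be shared. p-values measure the spread between these animals. The authors' positions served only for location. Values of 1 member are not reported here, though it is part of the counts.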

Additional observations from a re-analysis of the deposited data

Results flagged for a closer look

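The members below had a difference that varied between sexes or strains by edgeR's interaction test, adjusted over all genes. For diet by sex these were Slc25a1 (adjusted p = 0.0060) and Slc25a10 (adjusted p = 0.0060). For diet by strain they were Slc25a1 (5.8e-05), Slc25a10 (0.049), Slc25a13 (0.00043), Slc25a30 (0.038) and Slc25a47 (0.00039). For metformin by strain they were Slc25a3 (0.033), Slc25a5 (0.00033), Slc25a24 (0.021), Slc25a25 (0.00082), Slc25a33 (0.0064) and Slc25a47 (0.017). Slc25a1 and Slc25a10 are in 2 of these lists, as is Slc25a47.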

How the results depend on the processing

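Of the member values compared with alternatives, 590 kept their direction and side of the threshold, 39 lost and 11 gained a call, and 19 changed sign, none of which was called under that alternative. Unless a value is named as coming from fewer libraries or genes, the cause was not tested. The upper identifier range alone, with fewer libraries, called 2 members for diet, 11 for sex, 20 for strain, 0 for metformin (limma voom on all libraries 16), 3 for diet by strain, 0 for diet by sex and 2 for metformin by strain. The lower range alone called 1 for diet by sex and 3 for metformin by strain. Genes with a mean of at least 5 CPM, which leave 28 members, gave 1 for diet by strain and 1 for diet by sex. With limma voom 0 members were called for diet by strain and 2 for metformin by strain. Without libraries high in hepatocyte markers there were 2 for diet by strain and 3 for metformin by strain, and without libraries against their label 1 for metformin by diet.

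Signs changed as follows (log2 fold changes). For diet, the upper range gave -0.036 for Slc25a46, 0.11 for Slc25a5 and -0.015 for Slc25a12, and the lower range 0.12 for Slc25a25. Leaving out libraries against their label gave 0.0095 for Slc25a5, 0.049 for Slc25a25 and 0.084 for Slc25a47. Slc25a47 was at 0.041 with limma voom and at 0.030 without libraries high in hepatocyte markers, and Slc25a12 at -0.00055 among genes of at least 5 CPM. For sex, genes of at least 5 CPM gave -0.011 for Slc25a11 and -0.014 for Slc25a37, the upper range -0.018 for Slc25a37, and leaving out libraries against their label -0.022 for Slc25a13. For metformin, the upper range gave -0.033 for Slc25a36, 0.028 for Slc25a1 and 0.0082 for Slc25a11. Slc25a13 was at 0.037 without libraries against their label and at 0.048 without those high in hepatocyte markers. Of these, Slc25a46 (diet), Slc25a36 and Slc25a11 (metformin) were called in the fit over all libraries. A trended dispersion was added as an alternative after the data were seen.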
